A study of Homo sapiens with 9 samples.

Results

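The histone cluster genes are the genes of the HIST1, HIST2, HIST3 and HIST4 groups, which encode the core histones H2A, H2B, H3 and H4 and the linker histone H1. All rows of the gene-level table whose symbol began with 1 of these 4 names were taken, 63 of 18153 genes in all: 52 of HIST1 on chromosome 6, 7 of HIST2 and 3 of HIST3 on chromosome 1, and 1 of HIST4 on chromosome 12. They comprised 6 H1, 15 H2A, 18 H2B, 11 H3 and 13 H4 genes. The choice used names alone and no measured value. Symbols are given as filed, and each of the 63 matched a current gene of the RefSeq table (assembly GRCh38.p14).

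DNA in the nucleus is wound around octamers of core histones, and linker histones bind where it enters and leaves the particle. Most cluster genes are transcribed in S phase, when new DNA needs histones, and their mRNA ends in a stem-loop bound by SLBP in place of a poly(A) tail. Some of them can also yield polyadenylated mRNA, a form known from cells that stop dividing. The amplification kit named in the labels starts from oligo(dT), which pairs with poly(A) tails. How much of each signal came from tailed transcripts was not tested. Core histone genes of 1 class have near-identical coding sequences, so a probe may also bind transcripts of other members, and HIST2H2AA3 and HIST2H4A each have a duplicated copy nearby. For these reasons values are compared between arrays, and levels of different members are not compared, although the brightest of each class were chosen to be named.

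The samples were Huh-7 cells, a human hepatoma line, stably carrying a lentiviral shRNA against GFP (the control, shGFP), NDRG3 (shNDRG3) or HIF1A (shHIF1A; the labels write shHIF-1A). Hypoxia meant 1% oxygen. The first array platform held control cells in normoxia (1 array, the reference for both earlier times), control and shNDRG3 cells at 6 h and at 12 h of hypoxia, and the shHIF1A line at 12 h. The second held control cells in normoxia for 24 h, and control and shNDRG3 cells at 24 h of hypoxia. Each of the 9 groups held 1 array, the labels name no clone or number of cultures, and neither knockdown line was measured in normoxia, so single comparisons have no replicate check. In bulk RNA, fewer cells of a kind and less RNA per cell cannot be told apart.

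The targeted genes matched the labels: on the shNDRG3 arrays of 6, 12 and 24 h the NDRG3 intensity was 268, 215 and 233, where the shGFP arrays had 1278, 1456 and 1712, and HIF1A intensity was 231 in shHIF1A cells against 897. Of 10 hepatocyte and hepatoma markers, 0 to 3 reached the filter value (set out below) on any array. AFP lay under it on all 9 arrays, ALB (165 to 229 on the first platform, 160.0 to 168 on the second) reached it on the first platform only, and APOA1 was at 316 and 345 on the hypoxia arrays of the second, against 197 in normoxia. On the first platform APOA1 lay between 98 and 141. The hepatoma identity of the cells thus rests on the labels and was not shown by these markers. CA9, a gene known to be induced by hypoxia through HIF-1 and chosen after its values were seen, was at 940.0 in normoxia and 7582 and 14247 at 6 h and 12 h in shGFP cells, at 8250 and 13806 in shNDRG3 cells and at 4556 in shHIF1A cells. On the second platform it was at 472 in normoxia and 4600 in shGFP hypoxia but at 518 on the shNDRG3 array labelled 24 h of hypoxia, where HIF1A was at 331 against 572. That array thus stood apart from the other hypoxia arrays in CA9. The limma results that include it are also given without all 3 arrays of the second platform. It was not left out alone. Of 11 markers of blood, endothelial and fibroblast cells, 3 to 5 reached the filter value. All differences were taken within a platform, on the scale of log2(intensity + 32).

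Many cluster genes were dim. In shGFP normoxia their median intensity was 131 on the first platform, beside 170 over all genes, and 209 beside 276 on the second. A filter value was set at percentile 40 of all gene values, which was 127.3 on the first platform and 210.2 on the second, and a comparison used genes at or above it on 1 or more of its arrays. Of the 63 members, 24 reached it on all 6 arrays of the first platform, 20 on all 3 arrays of the second, and 16 on all 9, whereas 17 reached it on none. On at least 1 of the 9 arrays 46 of 63 members reached it, a share similar to that of all genes (13237 of 18153). The counts on all arrays of a platform were not taken over all genes. The 16 comprised 1 H1, 5 H2A, 5 H2B, 3 H3 and 2 H4 genes. HIST1H4C, an H4 gene, had intensities between 23091 and 46923 over the 9 arrays, HIST1H2BK, an H2B gene, between 3180.5 and 11392, and HIST1H1C, which encodes linker histone H1.2, between 1284 and 4359.

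Promoter sequences are shown for 5 members among those with the largest differences: HIST2H2BE, HIST2H2AA3 and HIST2H4A of the chromosome 1 group, and HIST1H2BK and HIST1H4H of the chromosome 6 group. Each window holds 250 bases before and 50 bases after the gene's start, from RefSeq (GRCh38.p14), written 5′ to 3′ on the gene's own strand. Capitals mark the TATA box letters TATAAA, the CCAAT box letters CCAAT and the octamer ATTTGCAT, on either strand; TATAAA can overlap its own reverse complement.
HIST2H2BE: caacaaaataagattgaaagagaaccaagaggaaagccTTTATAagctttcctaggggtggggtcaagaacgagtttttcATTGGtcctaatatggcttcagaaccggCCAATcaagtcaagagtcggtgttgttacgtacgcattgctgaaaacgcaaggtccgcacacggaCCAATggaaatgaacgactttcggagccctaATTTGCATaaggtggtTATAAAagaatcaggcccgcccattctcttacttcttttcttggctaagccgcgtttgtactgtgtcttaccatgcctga
HIST2H2AA3: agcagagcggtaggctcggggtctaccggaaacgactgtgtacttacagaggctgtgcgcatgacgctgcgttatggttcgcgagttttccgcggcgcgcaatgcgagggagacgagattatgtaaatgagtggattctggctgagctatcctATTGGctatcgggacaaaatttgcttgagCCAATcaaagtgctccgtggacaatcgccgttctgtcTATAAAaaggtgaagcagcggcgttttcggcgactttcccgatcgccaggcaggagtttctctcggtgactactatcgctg
HIST2H4A: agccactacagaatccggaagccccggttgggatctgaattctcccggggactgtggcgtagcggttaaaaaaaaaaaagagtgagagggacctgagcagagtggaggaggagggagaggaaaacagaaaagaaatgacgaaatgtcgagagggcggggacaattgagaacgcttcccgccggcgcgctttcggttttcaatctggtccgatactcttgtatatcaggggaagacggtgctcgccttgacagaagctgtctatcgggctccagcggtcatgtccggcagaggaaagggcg
HIST1H2BK: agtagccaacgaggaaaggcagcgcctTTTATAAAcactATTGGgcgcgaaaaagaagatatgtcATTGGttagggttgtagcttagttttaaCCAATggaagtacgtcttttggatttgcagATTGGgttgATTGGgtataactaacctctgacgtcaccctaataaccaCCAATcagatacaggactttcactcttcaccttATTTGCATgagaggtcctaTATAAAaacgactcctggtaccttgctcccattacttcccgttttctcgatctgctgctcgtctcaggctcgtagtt
HIST1H4H: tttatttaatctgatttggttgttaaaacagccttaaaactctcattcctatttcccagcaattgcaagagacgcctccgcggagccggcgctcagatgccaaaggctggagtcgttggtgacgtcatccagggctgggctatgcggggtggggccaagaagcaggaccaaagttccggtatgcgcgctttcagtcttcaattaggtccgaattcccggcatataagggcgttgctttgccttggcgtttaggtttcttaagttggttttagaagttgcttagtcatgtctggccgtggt
The windows lie at chr1:149886633-149886932 (minus strand), chr1:149842701-149843000 (minus), chr1:149832407-149832706 (plus), chr6:27146809-27147108 (minus, the first of 2 start sites listed) and chr6:26285485-26285784 (minus) in the order shown. HIST2H2BE has 2 TATAAA matches, 3 CCAAT matches and 1 octamer, HIST2H2AA3 has 1 TATAAA and 2 CCAAT matches, and HIST1H2BK has 3 TATAAA matches, 6 CCAAT matches and 1 octamer. The windows of the H4 genes HIST2H4A and HIST1H4H hold none of the 3 motifs. A match describes letters and is no evidence of a bound factor.

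Among the 58 members with a promoter in the table, CCAAT occurred in 50 (86.2%), against 34.6% of all 35116 promoters, TATAAA in 38 (65.5%, against 11.5%) and the octamer in 25 (43.1%, against 1.77%). CCAAT occurred in all 6 H1, 14 H2A, 18 H2B and 9 H3 windows but in 3 of 11 H4 windows. The octamer, known as an element of H2B promoters, was found in 14 of 18 H2B and 10 of 14 H2A windows, in 1 of 9 H3 windows and in no H1 or H4 window. Many H2A and H2B genes are neighbours that start away from each other, so their windows share bases and are not independent: the windows of HIST2H2BE and HIST2H2AC overlap by 265 bases. Among all classes 13 opposed pairs with starts under 1000 bases apart were listed, 11 of H2A with H2B and 2 of H2B with H3. HIST2H2BE with HIST2H2AC, 235 bases apart, was the 1 listed pair with both members over the filter value on all 9 arrays. Members without a promoter in the table are in none of these pairs, so the count may be too low. HIST1H2BF was counted both with HIST1H2AD and with HIST1H3D.

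The first comparison asked how cluster histone genes differed between hypoxia and normoxia in control cells. Of the 16 members over the filter value on all 9 arrays, 4 were higher at each time, the H2A genes HIST2H2AA3 and HIST2H2AC and the H2B genes HIST2H2BE and HIST1H2BD, and 6 were lower at each time, HIST1H4C, HIST1H2BK, HIST1H2BJ, HIST1H2BG, HIST1H3F and HIST3H2A. Over all 63 members 12 were higher and 18 lower at each time, among the higher ones the H4 gene HIST1H4H. The 6 h and 12 h differences share their normoxia array, which makes equal signs at these times more likely. The same counts over all genes were not taken, so whether cluster genes kept their sign more often than other genes was not tested. Of the 63 members, 17 reached the filter value on no array, so their signs are close to background. No difference passed the test across times. Over all 63 members the median differences at 6, 12 and 24 h were 0.01, -0.02 and -0.05, beside -0.01, 0.00 and -0.01 over all genes.

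Of the H2A genes, HIST2H2AA3 had an intensity of 744 in shGFP normoxia, 1253 at 6 h and 1943 at 12 h of hypoxia on the first platform, and 1856 in normoxia and 3372 at 24 h on the second. Both hypoxia arrays of the first platform and the 24 h array were above their normoxia array, by log2 differences of 0.73, 1.35 and 0.85. HIST2H2AC had intensities of 1194, 1497 and 2196 on the first platform and 1442 and 2110.5 on the second, again with normoxia lowest (0.32, 0.86 and 0.54). HIST3H2A was in the other direction at 806, 726 and 710.0, then 1537 and 1103 (-0.14, -0.18 and -0.47). HIST1H2AC differed by -0.12, 0.06 and -0.70, its intensity being 595 in normoxia and 354 at 24 h.

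Among H2B genes, HIST2H2BE, the opposed neighbour of HIST2H2AC, had intensities of 419 in normoxia, 513 at 6 h and 708 at 12 h, and of 348 in normoxia and 431 at 24 h. Its log2 differences of 0.27, 0.72 and 0.29 had the sign of those of HIST2H2AC at each time. HIST1H2BD was at 797, 931 and 1346, then at 1073 and 1425 (0.22, 0.73 and 0.40). The remaining bright H2B genes were lower in hypoxia. HIST1H2BK was at 7310.5 in normoxia, 6624 at 6 h and 6489 at 12 h, and at 11392 in normoxia and 5836 at 24 h (-0.14, -0.17 and -0.96), so most of its difference lay at 24 h. HIST1H2BJ was at 361, 313 and 219.9, then at 1308 and 1061 (-0.19, -0.64 and -0.29).

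Of the H4 genes, HIST1H4C had an intensity of 46923 in normoxia, 26848 at 6 h and 24963 at 12 h, and of 36543 in normoxia and 27317 at 24 h. Normoxia was thus the highest array on each platform (-0.80, -0.91 and -0.42). HIST1H4H went the other way, at 194, 240.3 and 406, then at 273 and 427 (0.27, 0.96 and 0.59). HIST2H4A was at 968, 1091 and 1124, then at 851 and 827 (0.17, 0.21 and -0.04), close to its normoxia values. The dim HIST1H4L differed by 0.64 at 24 h (228 against 135) and lay under the filter value on all the other arrays. HIST1H1C, the H1 gene with clear signal, was at 2436, 1837 and 2675, then at 1284 and 1418 (-0.40, 0.13 and 0.14). H3 genes differed by between -0.27 and 0.20 at any time among those over the filter value. The dim H2B genes HIST1H2BB (-0.41 at 6 h, -0.37 at 12 h) and HIST1H2BF (-0.38 and -0.30) and the H2A gene HIST1H2AH (-0.54 at 24 h) were also among the 4 lowest of a time.

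**Figure D1:**
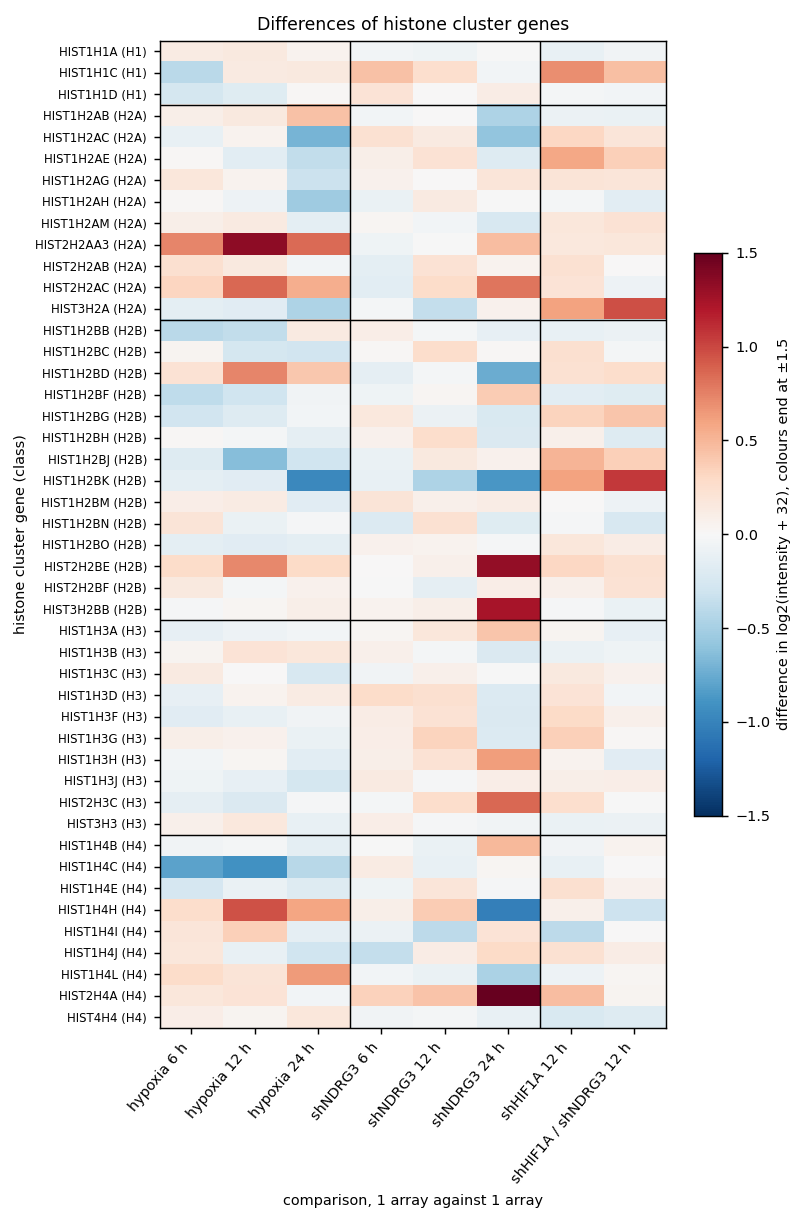
Differences in log2(intensity + 32) for the 46 cluster genes over the filter value on at least 1 of 9 arrays (rows, by histone class) in 8 comparisons of 1 array with 1 array (columns); red is higher and blue lower, and colours end at ±1.5, which HIST2H4A in shNDRG3 cells at 24 h (2.27) exceeds. HIST2H2AA3 is red in all 3 hypoxia columns and HIST1H4C blue, and the shNDRG3 columns at 6 h and 12 h are pale.

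In limma over the 5 shGFP arrays, with platform as a block and a single term for hypoxia, 0 of 46 members tested passed a Benjamini-Hochberg adjusted p of 0.05; of all 12774 genes 0.384% passed as higher and 0.0548% as lower. At an unadjusted p under 0.05 there were 8 members, 6 of them higher, beside 19.4% of all genes. HIST2H2AA3 had the smallest p, with a difference of 0.96 (SE 0.20, limma adjusted p = 0.112), followed by HIST1H4C at -0.67 (SE 0.15, limma adjusted p = 0.118). The other 6 were HIST2H2AC (0.57), HIST1H4H (0.60), HIST1H4L (0.41), HIST1H2BK (-0.50), HIST1H2BD (0.44) and HIST2H2BE (0.41), with limma adjusted p from 0.175 to 0.250. Without the 6 h array, limma called HIST2H2AA3 (1.10, adjusted p = 0.0130), HIST2H2AC (0.70, 0.0417) and HIST1H4H (0.77, 0.0324); this fit, which left 1 residual degree of freedom, called 3.79% of all genes higher and 3.72% lower. Without the 12 h array 0 members were called (0.65% of genes higher, 0.0951% lower), nor were any without the 24 h platform (0.729% and 0.0429%). On the log2(intensity + 32) scale 1 member was at least 2-fold apart at 12 h, HIST2H2AA3, beside 2.49% of genes higher and 1.53% lower; HIST1H4H (0.96) was 2.09-fold higher in plain intensity. At 6 h no member was 2-fold apart (0.899% of genes higher, 0.0529% lower), nor at 24 h (2.69% and 1.95%).

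**Figure D2:**
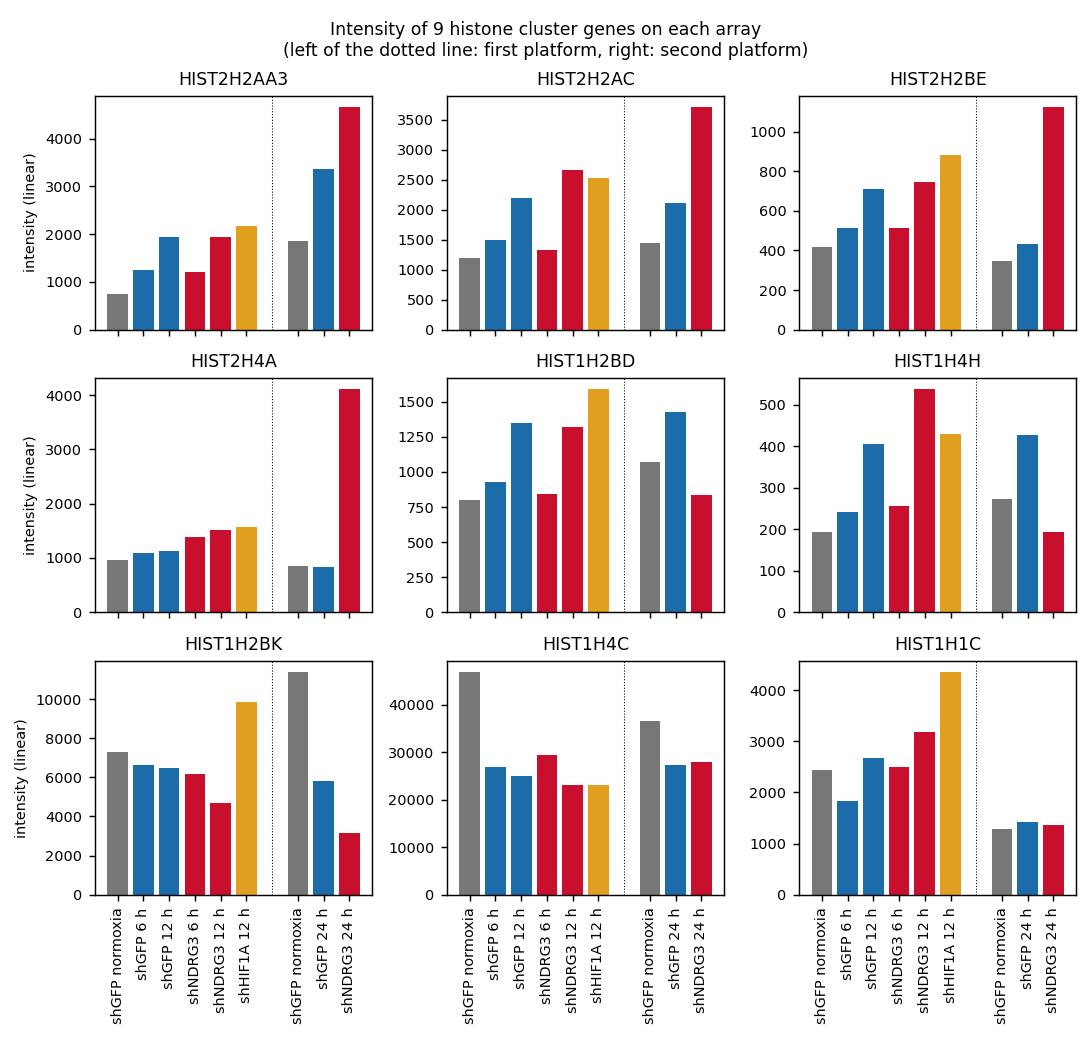
Intensity on a linear scale (bars from 0) of 9 cluster genes on each of the 9 arrays, grey for shGFP in normoxia, blue for shGFP, red for shNDRG3 and orange for shHIF1A in hypoxia; the dotted line parts the platforms, whose values are not compared. At 24 h HIST2H4A stands at 4106 on the shNDRG3 array and 827 on the shGFP array, and HIST1H4C is highest in normoxia on each platform.

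The second comparison asked how NDRG3 depletion altered cluster gene signals in hypoxic cells. None was 2-fold apart at 6 h or 12 h. At 24 h 3 genes on chromosome 1 were more than 2-fold higher, HIST2H4A 4.96-fold in plain intensity, HIST2H2BE 2.61-fold and HIST3H2BB 2.55-fold. HIST1H4H on chromosome 6 was at 0.453 of its control value. With pseudocount 64 no member was 2-fold lower. On the 24 h shNDRG3 array the HIST1H4H intensity of 193 lay under the filter value of 210.2. The same array had CA9 at 518 against 4600 in its control (-3.07, after 0.12 and -0.05 at 6 h and 12 h), and the part of this in the 24 h differences was not tested. None of these passed the test over the 3 times. Over all 63 members the median differences at 6, 12 and 24 h were 0.00, 0.08 and 0.06, beside 0, 0.00 and 0.01 over all genes.

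HIST2H4A had an intensity of 1391 on the shNDRG3 array and 1091 on the shGFP array at 6 h, 1522 against 1124 at 12 h and 4106 against 827 at 24 h. The knockdown array was the higher at each time, by 0.34, 0.43 and 2.27. At 24 h that difference ranked 3 from the top among 11582 genes over the filter value. HIST2H2BE was at 514 against 513, 746 against 708 and 1125 against 431 (0.00, 0.07 and 1.32, rank 19 at 24 h). HIST3H2BB, an H2B gene, was at 122 against 117, 131 against 121 and 553 against 217 (0.05, 0.09 and 1.23, rank 29), and it was under the filter value on all but 1 array of the first platform. For both H2B genes, then, the difference was seen at 24 h and not at 6 h or 12 h. On the 24 h shNDRG3 array all 3 genes were also above shGFP normoxia of that platform, which had 851 for HIST2H4A, 348 for HIST2H2BE and 201 for HIST3H2BB.

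The other HIST2 genes were also above the control at 24 h. HIST2H2AC was at 1337 against 1497 at 6 h, 2669.7 against 2196 at 12 h and 3719 against 2110.5 at 24 h (-0.16, 0.28 and 0.81), so the sign at 6 h was opposite. HIST2H2AA3 was at 1198 against 1253, 1934 against 1943 and 4671 against 3372 (-0.06, -0.01 and 0.47). The H3 gene HIST2H3C was at 349 against 177 at 24 h (0.87) and differed by -0.03 and 0.26 before. All 7 HIST2 members were positive at 24 h with a median of 0.81. Beside them, 27 of 52 HIST1 members (median 0.03) and 9473 of 18153 genes were positive. Of the 7, 5 were over the filter value in this comparison, HIST2H3C through the shNDRG3 array alone. HIST2H2AB (0.05) and HIST2H2BF (0.10) lay under it on both arrays, so their signs are close to background. HIST3H2A, 229 bases from HIST3H2BB and opposed to it, was at 1154 against 1103 (0.06), where HIST3H2BB differed by 1.23.

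Chromosome 6 members supplied the lowest values at 24 h. HIST1H4H was at 193 against 427 (-1.03), after 257 against 240.3 at 6 h and 537 against 406 at 12 h (0.09 and 0.38), so its sign was opposite at 24 h. HIST1H2BK was at 6147 against 6624, 4710.3 against 6489 and 3180.5 against 5836 (-0.11, -0.46 and -0.87), lower on each shNDRG3 array. HIST1H2BD was at 838 against 1425 at 24 h (-0.74), and at 844 against 931 and 1321 against 1346 before (-0.14 and -0.03). HIST1H2AC was at 223 against 354 at 24 h (-0.60), and above the control at 6 h and 12 h (0.23 and 0.13). Thus HIST1H4H and HIST1H2BD, which were higher in hypoxia than in normoxia in shGFP cells at 24 h, were below their normoxia intensities (273 and 1073) in shNDRG3 cells. HIST1H4C, in contrast, was at 27934 against 27317 (0.03).

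H3 genes had low signal, and no H3 member was among the lowest values at 24 h. HIST1H3H was at 165 against 154 at 6 h, 196 against 164 at 12 h and 461 against 286 at 24 h (0.08, 0.22 and 0.63). HIST1H3F was at 297 against 272, 337 against 286 and 214 against 254 (0.12, 0.22 and -0.22), and HIST1H3G at 276 against 256, 328 against 252 and 193 against 227 (0.10, 0.34 and -0.21), so both were higher in shNDRG3 cells at 6 h and 12 h and lower at 24 h. HIST1H3A (312 against 226, 0.41) was higher at 24 h, while HIST1H3C (263 against 265, -0.01) was close to its control.

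**Figure D3:**
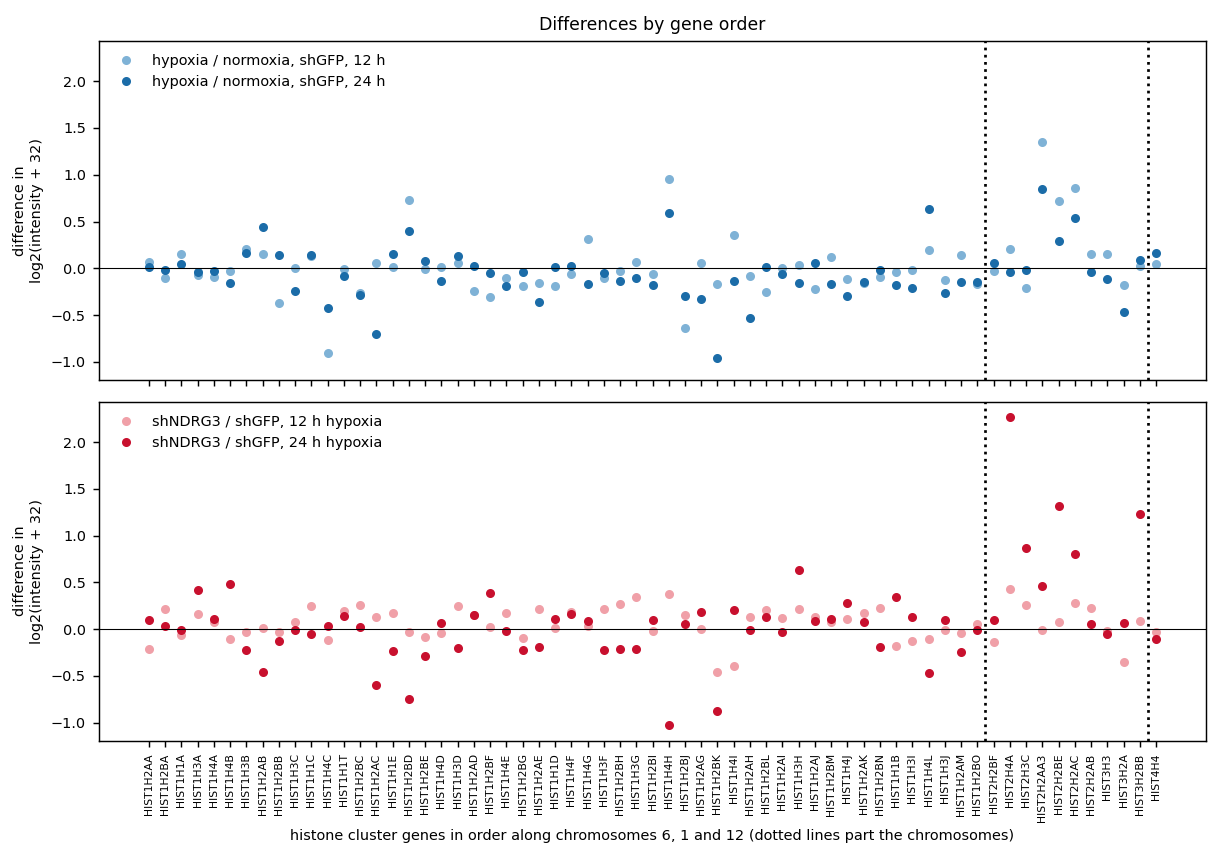
Differences in log2(intensity + 32) of all 63 cluster genes in their order along chromosomes 6, 1 and 12, for hypoxia against normoxia in shGFP cells (top) and shNDRG3 against shGFP cells in hypoxia (bottom); each point is 1 array against 1 array, pale at 12 h and dark at 24 h. In the lower plot HIST2H4A (2.27), HIST2H2BE (1.32) and HIST3H2BB (1.23) on chromosome 1 lie highest at 24 h and HIST1H4H (-1.03) lowest.

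At 6 h and 12 h differences were smaller. The highest at 6 h was HIST1H1C, at 2497 against 1837 (0.44), followed by HIST2H4A, and HIST1H1C was also higher at 12 h (3189 against 2675, 0.25) but not at 24 h (1373 against 1418, -0.05). At 12 h the H3 gene HIST1H3G followed HIST2H4A and HIST1H4H (0.34; 328 against 252). The lowest members were HIST1H4J at 6 h (-0.36; 125 against 170) and, after HIST1H2BK, HIST1H4I (-0.40; 116 against 163) and HIST3H2A (-0.36; 548 against 710.0) at 12 h. HIST1H4J and HIST1H4I crossed the filter value between the arrays compared, so their differences are close to background. Others among the 4 largest in a direction were HIST1H3D (0.27), HIST1H2BN (-0.21) and HIST2H2AB (-0.15) at 6 h and HIST2H2BF (-0.14) at 12 h.

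In limma over all 9 arrays, with a mean for each condition and time and 1 NDRG3 term, 0 of 46 members passed; of 13237 genes 0% passed as higher and 0.00755% as lower, NDRG3 itself. At an unadjusted p under 0.05 there were 2 members, beside 8.53% of genes: HIST1H2BK at -0.48 (SE 0.15, limma adjusted p = 0.556) and HIST2H4A at 1.01 (SE 0.38, limma adjusted p = 0.579). Without the 24 h arrays limma called HIST2H4A (0.38, adjusted p = 0.0110) and HIST1H1C (0.34, 0.0273) as higher, in a fit with a prior of 26.27 and 1 residual degree of freedom that called 2.62% of all genes higher and 2.7% lower. Without the 6 h arrays (0% of genes higher, 0.00764% lower) or the 12 h arrays (0% in either direction) 0 members were called. Of 31 members over the filter value at 24 h, on the log2(intensity + 32) scale, 3 were at least 2-fold higher and 1 lower; 0.673% of genes were higher and 2.57% lower. At 6 h (0.0441% higher, 0.0706% lower) and 12 h (0.0618% and 0.106%) no member was 2-fold apart. Time and platform cannot be told apart for the 24 h values.

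The third comparison asked which cluster genes differed in shHIF1A cells after 12 h of hypoxia. Most were slightly higher: 41 of 63 members were positive with a median of 0.10, beside 9171 of 18153 genes with a median of 0.00. Among the 32 members whose mean over the first platform's arrays, shHIF1A included, reached the filter value, 26 were positive with a median of 0.22. Of all genes so filtered, 5496 of 10868 were positive, with a median of 0.00. In the related lists described below, so filtered, 14 of 19 histone mRNA processing genes (median 0.13) and 17 of 23 chaperones (0.12) were positive. Replacement histones had 7 of 11 (0.12) and S phase genes 10 of 20 (0.01). No member was 2-fold apart from the control (0.534% of genes higher, 0.605% lower), and none passed the test. The slight shift was not particular to shHIF1A cells. Against the same shGFP array, shNDRG3 cells at 12 h had 40 of 63 members positive (median 0.08), beside 9171 of 18153 genes (0.00). With the filter on the platform mean 21 of 32 were positive there (0.14). The 2 comparisons share their single control array.

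HIST1H1C was at 4359 in shHIF1A against 2675 in shGFP cells (0.70), the highest of the 6 arrays of the platform. HIST1H2BK was at 9872 against 6489 (0.60) and HIST3H2A at 1098 against 710.0 (0.61), and both were also above shGFP normoxia (7310.5 and 806). HIST1H2AE was at 379 against 243 (0.58), above the normoxia array (274). These 4 members were thus highest on the shHIF1A array among the 6 arrays. HIST1H2BJ was at 326 against 219.9 (0.51), which was below its normoxia value of 361, and HIST2H4A was at 1563 against 1124 (0.46). The lowest members, HIST1H4I (-0.39), HIST4H4 (-0.22), HIST1H2BF (-0.16) and HIST1H1A (-0.11), all had intensities of 163 or less on both arrays. HIST2H2AA3 (2175 against 1943, 0.16), HIST1H4H (428 against 406, 0.07) and HIST1H4C (23150.4 against 24963, -0.11), which differed between hypoxia and normoxia in shGFP cells, lay near their hypoxia control.

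In the 9-array limma fit 0 of 46 members passed for the HIF1A term, as did 0% of 13237 genes in either direction; 4 members, all higher, had an unadjusted p under 0.05, beside 10.8% of genes. They were HIST3H2A (0.73, SE 0.18, limma adjusted p = 0.237), HIST1H1C (0.68, limma adjusted p = 0.282), HIST1H2BJ (0.45, limma adjusted p = 0.368) and HIST1H2AE (0.49, limma adjusted p = 0.402). Without the 24 h arrays limma called 7 members higher and 0 lower (8.84% of genes higher and 7.71% lower): HIST1H1C, HIST1H2AE, HIST1H2BG, HIST1H2BJ, HIST1H2BK, HIST2H4A and HIST3H2A, with differences from 0.39 to 0.74 and adjusted p from 6.89e-05 to 0.0294. That fit rests on the same single shHIF1A array and leans on variance pooled across genes, with 1 residual degree of freedom. In both fits the spread came from the other arrays only.

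The knockdown lines were also set side by side at 12 h, without the control array. HIST1H2BK was 9872 in shHIF1A and 4710.3 in shNDRG3 cells, a log2 difference of 1.06 (0.377% of genes were 2-fold higher and 0.596% lower), and HIST3H2A was 1098 and 548 (0.96). For both genes the shGFP control at 12 h lay between the knockdown lines. HIST1H1C (0.45) and HIST1H2BG (0.42) followed, while HIST1H4H was lower in shHIF1A cells (428 and 537, -0.31), as were HIST1H2BN (-0.24), HIST1H2BH (-0.19) and HIST1H2BF (-0.19). The median over all members was 0.00, as over all genes.

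Genes related to histones were examined as lists chosen by function. In limma none of the 11 to 12 replacement histone genes, 19 genes of histone mRNA synthesis and processing, 24 histone chaperone genes and 20 S phase genes tested passed over all genes for any of the 3 terms; at an unadjusted p under 0.05 the hypoxia term had 6 of 11, 4 of 19, 8 of 24 and 4 of 20 of them, beside 19.4% of all genes. Their hypoxia medians at 12 h were -0.14, -0.17, -0.03 and -0.09, beside -0.02 for the cluster genes. Among replacement histones, which are made outside S phase too, H3F3B (H3.3) differed by -0.77, -1.11 and -0.78 at 6, 12 and 24 h of hypoxia and CENPA, the centromere H3, by -0.35, -1.66 and -0.66. H1F0, a linker histone gene known to be active in cells that stop dividing, was at 4123 in normoxia, 13989 in shGFP and 27615 in shNDRG3 cells at 24 h (1.75 for hypoxia and 0.98 for shNDRG3), but differed by 0.29 and 0.10 for hypoxia at 6 h and 12 h. H1FX (0.77), CENPA (0.70) and H2AFX (0.63) were also higher in shNDRG3 cells at 24 h. H2AFY2 had the largest shHIF1A difference of the list (0.93).

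Of the processing genes, SLBP, which binds the histone stem-loop, differed by 0.23, 0.14 and 0.19 in hypoxia and NPAT, the coactivator of histone genes, by -0.02, 0.21 and 0.08. LSM10, a subunit of the U7 particle that cuts histone pre-mRNA, was lower in hypoxia at each time (-0.65, -1.30 and -0.49), and CPSF3, the nuclease that makes the cut, was at -0.09, -0.62 and -1.12. Of the chaperones, ASF1A differed by -0.49, -1.26 and -1.03 and its relative ASF1B by 0.37, 0.57 and 0.19. S phase genes differed in both directions at 12 h: CCNE2 was at 0.81 and TK1 and CDT1 at 0.73 each, whereas CCNA2 was at -1.11. In shNDRG3 cells at 24 h the S phase median was -0.05, with CDT1 at -0.82, TK1 at -0.76 and CCNA2 at 0.88. The part of these genes in the differences of the cluster genes was not tested.

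**Figure D4:**
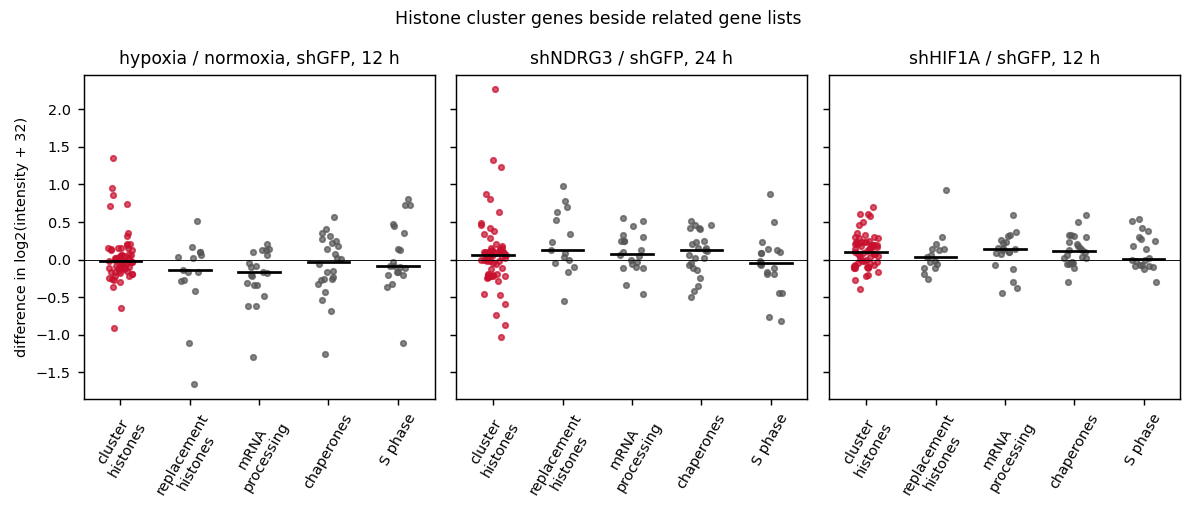
Differences in log2(intensity + 32) of the 63 cluster genes (red) and of the genes in 4 related lists (grey), 1 point a gene and a bar at each median, for hypoxia against normoxia at 12 h, shNDRG3 against shGFP at 24 h and shHIF1A against shGFP at 12 h, each 1 array against 1 array. Medians lie between -0.17 and 0.14, while single cluster genes reach 1.35 in hypoxia and 2.27 in shNDRG3 cells.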

How the data were processed

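Per the labels' protocols, 200 ng of total RNA per sample was amplified with the Illumina TotalPrep kit and labelled with biotin. The deposited gene-level table gives linear intensity per gene for 9 arrays; its software, normalization and probe summary were not stated in the labels. The sorted probe values of arrays on 1 platform differed by at most 0.0323 (log2) on the first platform (29377 probes) and 0.006 on the second (48803), as after quantile normalization. The lowest gene values were 58.0 and 104.7. Whether background had been subtracted could not be told from them. The values of 60 and 59 members equalled those of 1 probe (relative tolerance 0.0002). Array values carry no read depth, and precision is limited by 1 array per group.

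Intensities were taken as log2(intensity + 32) with no further normalization. limma 3.58.1 (R 4.3.3; lmFit, eBayes, Benjamini-Hochberg over all genes tested, threshold 0.05), tested on simulated data, used the times in place of replicates, so its p-values measure spread between times and platforms as well. Residual degrees of freedom were 2 in each fit, with priors of 5.07 for hypoxia and 3.77 for the knockdowns. Single comparisons were described with no test. The named genes were the 3 brightest members per class and platform, members at least 2-fold apart or the 4 largest differences in each direction, members called by limma, and the largest differences in related lists. SLBP and NPAT were added for their roles after their values were seen. The members and lists were chosen with earlier results of these data known. Alternatives changed the pseudocount (0, 64), background, centring, filter, probe summary, fold threshold and times.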

Additional observations from a re-analysis of the deposited data

Results flagged for a closer look

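HIST1H4H stood out because its shNDRG3 difference had the opposite sign at 24 h: it was -1.03 on the log2 scale at 24 h (193 against 427) and 0.09 and 0.38 at 6 h and 12 h. The intensity of 193 lay under the filter value of 210.2, close to background. The difference between the times was not tested, and time and platform cannot be told apart.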

How the results depend on the processing

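With 1 array per group no single comparison has a replicate error, dim members lie near background, and probes of near-identical members may cross-react. No paired analysis was possible because each group held 1 array and the labels give no replicate numbers by which to pair. The NDRG3 term already compares arrays within each time. The HIF1A term sets the shHIF1A array against a 12 h mean fitted with the NDRG3 term, so values of the other times enter it. For HIST2H4A the HIF1A term was 0.76, where the shHIF1A difference from shGFP at 12 h was 0.46. Leaving out 1 time, limma called 0 to 3 members for hypoxia (3 without the 6 h arrays), 0 to 2 for NDRG3 and 0 to 7 for HIF1A (2 and 7 without the 24 h arrays); the HIF1A term could not be fitted without the 12 h arrays. Under the other limma alternatives run, no member was called for any term. Single limma results were tallied for the members with the smallest p of each term only. Of these, 117 kept their direction and side of the threshold, 8 passed it under an alternative and 0 reversed. Other members called with 1 time left out are not in this tally. The median member difference became -0.13 at 6 h and 0.13 at 12 h of hypoxia and 0.20 for shHIF1A against shNDRG3 with a 60th percentile filter, which keeps fewer members. For shHIF1A against shGFP it became 0.31 with that filter, 0.22 with a filter on the platform mean and 0.21 with background subtracted, which also gave 0.21 for shNDRG3 at 12 h. Counted at 1.5-fold in place of 2-fold, the members apart were 2 of 37, 7 of 37 and 5 of 35 for hypoxia at 6, 12 and 24 h (3.44%, 14% and 18.2% of all genes), 10 of 31 for shNDRG3 at 24 h (12.5%), 3 of 34 for shHIF1A (6.28%) and 2 of 34 for shHIF1A against shNDRG3 (5.44%). With background subtracted the 2-fold counts were 2 and 3 for hypoxia at 12 and 24 h (7.06% and 10.7% of all genes), 9 for shNDRG3 at 24 h (8.29%) and 2 for shHIF1A against shNDRG3 (2.37%). Pseudocount 0 gave 2 for hypoxia at 12 h (4.54%) and 2 for shHIF1A against shNDRG3 (1.25%), where genes equal to 1 probe gave 0 (1.04%), since HIST1H2BK did not equal 1 probe. Where no reason is given the cause was not tested.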

Other observations

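Of the hepatocyte and hepatoma list 1 of 4 genes tested had an unadjusted limma p under 0.05 for the HIF1A term, beside 10.8% of all genes, and of the fibroblast list 1 of 2 for hypoxia, beside 19.4%; none passed over all genes.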
